A study of Mus musculus with 18 samples.

Results

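The INK4 and CIP/KIP genes encode small proteins that hold the cell cycle in G1 by inhibiting cyclin-dependent kinases (CDKs). 6 of them are described here, each chosen by name: Cdkn2a, Cdkn2b, Cdkn2c and Cdkn2d of the INK4 family, and Cdkn1b and Cdkn1c of the CIP/KIP family. Cdkn1a, also of the CIP/KIP family, is not among these 6. These 6 genes, of 55401 in the deposited tables, were followed through the chemical reprogramming of mouse embryonic fibroblasts (MEFs) to pluripotent stem cells. RNA was sequenced from cells in reprogramming medium at D2, D4, D6, D8, D10 and D12, from established chemically induced pluripotent stem cells (riPSC), from the R1 embryonic stem cell line (mESC) and from the starting MEFs (D0). The MEFs, of the strain given as 129XOG2, came from E13.5 embryos and were used at passages 1 to 3. The labels name no embryo, sex or clone, and the composition of the reprogramming medium was not given in the sources used here. The riPSC, labelled as derived from MEFs, and the R1 cells were both grown on feeder cells in a medium with LIF, CHIR99021 and PD0325901, so feeder RNA can be part of these 4 libraries. Each of the 9 groups had 2 libraries, 18 in all, and no label says whether the pair stems from different cultures. P-values therefore reflect no more than the scatter within such pairs, which may be technical.

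INK4 proteins bind CDK4 and CDK6 and keep them from the D-type cyclins, while p27 (Cdkn1b) and p57 (Cdkn1c) bind complexes of cyclin and CDK, above all those of CDK2. Cdkn2a makes a second protein from an upstream first exon, ARF, which inhibits the ubiquitin ligase Mdm2 and thereby stabilises p53. Cdkn2a and Cdkn2b are known to accumulate in cultured fibroblasts as these age, and the locus is a known barrier to their reprogramming. Cdkn1c is an imprinted gene, expressed from the maternal allele.

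Cdkn2a and Cdkn2b lie side by side on the minus strand of chromosome 4, at chr4:89274471-89294653 and chr4:89306299-89311039 (mm10), 11646 bases apart. Cdkn2c is on the same chromosome at chr4:109660876-109667189, Cdkn2d at chr9:21288410-21291407, Cdkn1b at chr6:134920401-134925513 on the plus strand, and Cdkn1c at chr7:143458339-143461050. The neighbouring pair moved together in most of the course, and Cdkn1b moved the other way at D8 against D6. The promoters of the pair and of Cdkn1b are shown from 250 bases before to 50 bases after the start (RefSeq, GRCm38.p6). They are the 2 starts of Cdkn2a, upstream for Arf (chr4:89294570-89294869) and downstream for p16-INK4a (chr4:89282143-89282442), with Cdkn2b (chr4:89310983-89311282) and Cdkn1b (chr6:134920151-134920450). Capitals mark GC boxes (GGGCGG), an E2F-like motif (TTTNNCGC) and a cyclic AMP response element (TGACGTCA), each searched on both strands.
Cdkn2a upstream start: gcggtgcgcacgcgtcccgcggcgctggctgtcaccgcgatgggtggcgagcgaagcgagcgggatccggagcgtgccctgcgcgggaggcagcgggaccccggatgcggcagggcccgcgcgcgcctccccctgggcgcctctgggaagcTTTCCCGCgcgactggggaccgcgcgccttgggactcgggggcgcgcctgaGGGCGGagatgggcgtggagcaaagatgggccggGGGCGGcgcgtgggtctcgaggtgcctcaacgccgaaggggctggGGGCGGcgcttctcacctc
Cdkn2a downstream start: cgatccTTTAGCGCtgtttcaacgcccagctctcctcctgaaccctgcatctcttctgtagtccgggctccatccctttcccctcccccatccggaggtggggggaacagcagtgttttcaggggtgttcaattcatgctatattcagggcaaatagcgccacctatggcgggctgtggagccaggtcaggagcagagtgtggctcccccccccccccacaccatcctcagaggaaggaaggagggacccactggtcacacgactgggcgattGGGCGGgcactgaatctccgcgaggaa
Cdkn2b: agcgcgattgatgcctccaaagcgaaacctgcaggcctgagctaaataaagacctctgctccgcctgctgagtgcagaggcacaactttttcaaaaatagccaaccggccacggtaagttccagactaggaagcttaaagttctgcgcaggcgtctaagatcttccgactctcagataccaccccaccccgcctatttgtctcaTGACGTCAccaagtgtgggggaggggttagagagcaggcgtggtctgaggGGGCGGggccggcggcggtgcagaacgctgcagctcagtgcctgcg
Cdkn1b: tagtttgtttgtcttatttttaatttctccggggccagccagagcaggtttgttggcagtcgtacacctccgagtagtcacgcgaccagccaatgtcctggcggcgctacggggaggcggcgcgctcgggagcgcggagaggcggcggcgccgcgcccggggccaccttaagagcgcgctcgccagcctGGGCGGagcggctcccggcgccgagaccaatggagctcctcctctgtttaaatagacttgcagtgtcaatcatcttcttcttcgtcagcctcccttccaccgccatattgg

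The Arf promoter had 77.0% GC and 45 CpG dinucleotides, the p16-INK4a promoter 60.3% and 12, the Cdkn2b promoter 57.7% and 18, and the Cdkn1b promoter 62.0% and 30, beside medians of 52.7% and 7 over all 32851 promoters of this length. Both Cdkn2a promoters held the E2F-like motif, found in 5.17% of all promoters, and the Cdkn2b promoter held the cyclic AMP response element, found in 1.79%. All 4 held a GC box, as 35.7% of all promoters did. Also searched were the letters of an AP-1 site (TGANTCA, in 7.81% of all promoters), a box with the letters TATAAA (13.6%), a FoxO site (TGTTTAC, 3.65%) and a Smad element (GTCTAGAC, 0.213%), none of which was in these 4 windows. The motifs were chosen with the sequences in view. Of the 6 genes, 5 had a promoter in the RefSeq table, with 7 starts in all.

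Levels are in FPKM, a measure of fragments that corrects for transcript length and library size and can be compared between genes. Depth was estimated from the value of 1 read pair in single-exon genes, at 16.4 to 20.8 M read pairs in 16 libraries. The 2 D2 columns stood apart. Every gene above 0 in D2 replicate 1 was above 0 in replicate 2, whereas in the other groups 769 to 2664 genes were above 0 in replicate 1 only. In 1984 of the 20906 genes above 0 in both D2 columns, one value was 5 times the other (tolerance 0.0001), against at most 2 genes in any other group. The D2 columns therefore share values and cannot be read as independent libraries: both are given, with no SD, and no call at D2 or elsewhere changed when they were averaged to 1 sample or, for the other comparisons, left out. Fibroblast markers (10 genes) summed to 841 and 1302 FPKM at D0, where striated muscle markers (7 genes) also summed to 430.4 and 306 FPKM and myeloid markers (8 genes) to 99.4 and 110.3 FPKM. Pluripotency markers (8 genes) summed to 4393 and 4661 FPKM in riPSC and 3697 and 4146 FPKM in mESC, with none at 0.

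The 6 genes fell into unlike patterns. Cdkn2a and Cdkn2b were highest at D6, Cdkn2c, Cdkn2d and Cdkn1c at D4, and Cdkn1b in mESC. Cdkn1c had by far the widest range, with a mean of 616 FPKM at D4 and 0.600 FPKM in riPSC, a ratio of 1027. The corresponding ratio of highest to lowest group mean was 33.7 for Cdkn2b, 9.71 for Cdkn2a, 8.11 for Cdkn1b, 5.54 for Cdkn2c and 4.30 for Cdkn2d. Across the 9 group means, on the log2(FPKM + 1) scale, Pearson's r was 0.93 between Cdkn2a and Cdkn2b and 0.95 between Cdkn2c and Cdkn1c, while Cdkn1b had a negative r with each of the other 5, between -0.80 and -0.53. These are descriptions of 9 points that share libraries.

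**Figure D1:**
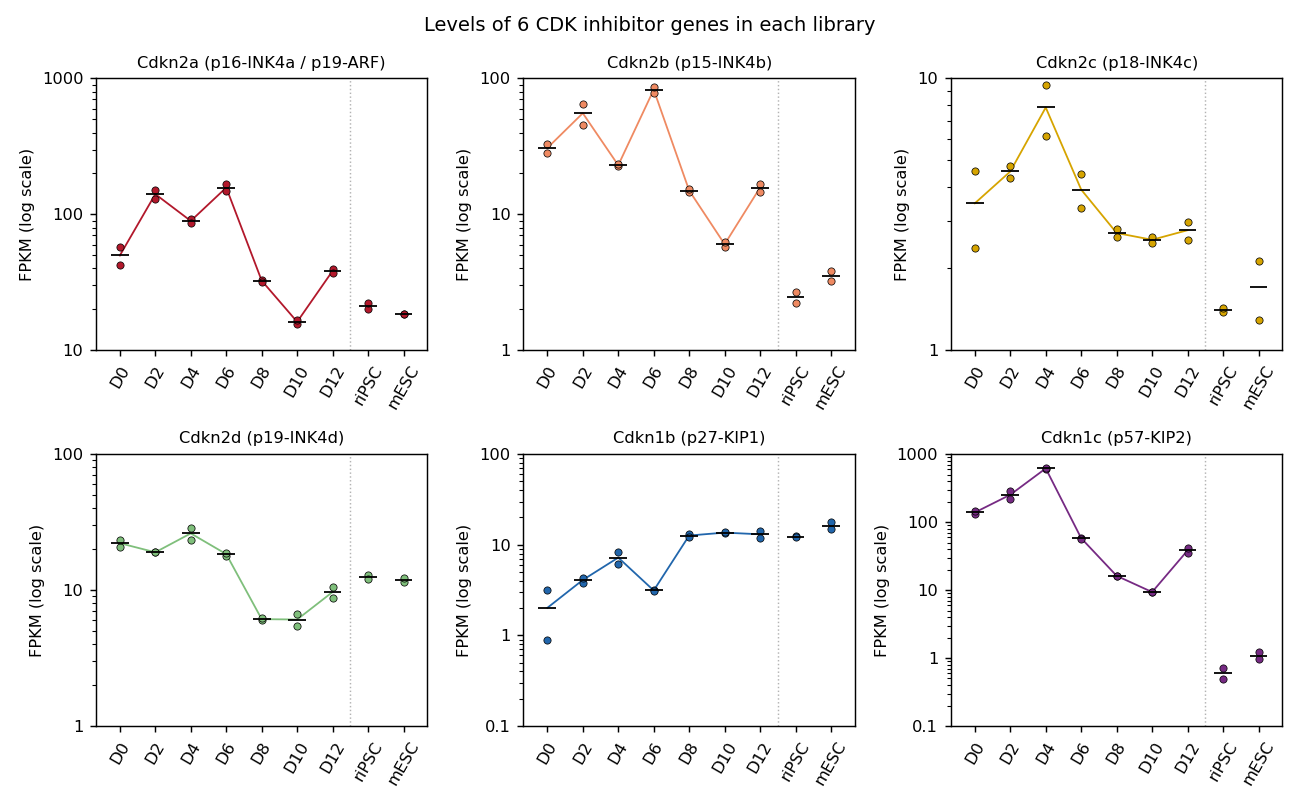
FPKM (log scale, with a different range per panel) of the 6 inhibitor genes in each library (points) and group mean (black bars), with days in order and riPSC and mESC to the right of the dotted line. Cdkn2a and Cdkn2b had their 2 highest means at D2 and D6 and lower ones at D4, differences that were called at D4 against D2 and at D6 against D4 for Cdkn2b but not for Cdkn2a. Cdkn1c peaked at D4 at 610.0 and 622 FPKM, and Cdkn1b was at 11.7 to 17.6 FPKM from D8 on.

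A gene was called where limma, fitted on log2(FPKM + 1) over all 18 libraries, gave an adjusted p under 0.05 and a fold of at least 2 on that scale; "rose" and "fell" refer to such calls. Cdkn2a, the gene of p16-INK4a and ARF, stood at 57.4 and 42.2 FPKM at D0, 151 and 130.4 at D2, 92.9 and 86.1 at D4, 148 and 167 at D6, 33.1 and 31.9 at D8, 15.7 and 16.7 at D10, and 39.7 and 37.1 at D12. In riPSC it stood at 20.1 and 22.3 FPKM, against 18.5 and 18.4 FPKM in mESC. The D2 and D6 libraries were the 4 highest and overlapped each other; no other neighbours in the order of levels overlapped. Cdkn2a rose at D2 against D0 by 1.49 ± 0.14 (log2 fold change ± SE, adjusted p = 3.99e-06), a call lost when only those 4 libraries were fitted (adjusted p = 0.0997). At D6 it was again above D0, by 1.65 ± 0.14 (adjusted p = 6.93e-07), or 1.04 after median-of-ratios scaling, a value over 1.5 times smaller. Its lower level at D4 was not called, at -0.65 ± 0.14 against D2, and neither was D6 against D4, at 0.81 ± 0.14. The step with the largest change was D8 against D6, where Cdkn2a fell by 2.24 on the log2 scale (SE 0.14, adjusted p = 4.36e-08), to a mean 4.84-fold lower. Cdkn2a did not stay at its D10 low. It rose again at D12 against D10, by 1.20 ± 0.14 (adjusted p = 3.02e-05). In riPSC it was below D0 by a log2 fold change of -1.18 ± 0.14 (adjusted p = 5.37e-06), which was -0.96 and no longer called without D0 replicate 1, and -1.91 after median-of-ratios scaling. The files give 1 value for the gene, so transcripts of p16-INK4a and Arf cannot be told apart.

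Cdkn2b encodes p15-INK4b, known as a target of TGF-beta signalling. Its level was 28.4 and 33.2 FPKM at D0, 65.2 and 45.7 at D2, 22.5 and 23.5 at D4, 78.4 and 86.9 at D6, 14.5 and 15.4 at D8, 5.79 and 6.27 at D10, and 14.6 and 16.9 at D12. The riPSC libraries held 2.23 and 2.68 FPKM, against 3.24 and 3.85 FPKM in mESC. Only D12 and D8 overlapped among neighbours in the order of levels. Both sides of the low at D4 were called: Cdkn2b fell at D4 against D2 by 1.21 on the log2 scale (SE 0.16, adjusted p = 1.17e-04) and rose at D6 against D4 by 1.80 ± 0.16 (adjusted p = 2.35e-06). At D4 the pair also differed in sign against D0, neither being called, with 0.85 ± 0.14 for Cdkn2a and -0.40 ± 0.16 for Cdkn2b. The fall at D4 was not called without D2 replicate 1, at -0.96, or with only the 4 libraries fitted, at an adjusted p of 0.0946. At D8 against D6 it fell by 2.39 on the log2 scale (SE 0.16, adjusted p = 8.19e-08), to a mean 5.52-fold lower, close to the change of its neighbour Cdkn2a in the same step. The pair parted later. Cdkn2b was lower in riPSC than in D0 by a log2 fold change of -3.20 ± 0.16 (adjusted p = 2.13e-09), and the ratio of Cdkn2a to Cdkn2b in FPKM was 9.03 and 8.31 in the riPSC libraries, against 2.02 and 1.27 in the D0 libraries. That ratio was 1.89 and 1.92 at D6 and 4.12 and 3.67 at D4, and at most 2.85 on the other days of the course. The rise of Cdkn2b at D6 against D0 was 1.40 ± 0.16 (adjusted p = 7.16e-06), beside a median of 0.50 over all genes, and was not called after median-of-ratios scaling, at 0.79.

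Mtap, the tested gene next to this pair, lies 93390 bases from Cdkn2a and encodes an enzyme of methionine salvage. It had 44.997 and 43.6 FPKM at D6, against 18.8 and 25.5 FPKM at D4, a log2 fold change of 0.98 ± 0.25 that was not called. It fell at D8, to 20.9 and 21.9 FPKM, by 1.02 on the log2 scale (SE 0.25, adjusted p = 0.00395). At D12 against D10, where Cdkn2a and Cdkn2b rose, Mtap fell, to 5.72 and 6.50 FPKM against 14.9 and 14.3 FPKM at D10.

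The remaining INK4 genes were called in fewer comparisons, Cdkn2d in 4 and Cdkn2c in none. Cdkn2d was below Cdkn2b in mean level up to D2 and at D6, D8 and D12, and above it at D4, at D10 (6.07 beside 6.03 FPKM), in riPSC and in mESC. Cdkn2c, which encodes p18-INK4c, was between 1.30 and 9.48 FPKM in all libraries, highest at D4 (6.15 and 9.48 FPKM) and lowest in riPSC (1.39 and 1.43 FPKM). At D0 its values were 2.39 and 4.56 FPKM, and from the second to the seventh place in its order every group overlapped the next. The comparison nearest to a call was D4 against D0, with a log2 fold change of 1.00 ± 0.23 (adjusted p = 0.00305), just under the fold threshold. Cdkn2d, which encodes p19-INK4d and is unrelated to ARF in sequence, had 20.7 and 23.5 FPKM at D0, 19.01 and 18.9 at D2, 23.4 and 28.8 at D4, 17.9 and 18.9 at D6, 6.01 and 6.21 at D8, 6.71 and 5.44 at D10, and 8.80 and 10.6 at D12. In riPSC it had 12.98 and 12.03 FPKM, against 11.4 and 12.197 FPKM in mESC. All 8 libraries up to D6 lay above all the others. Cdkn2d fell in 1 step, D8 against D6, by 1.45 on the log2 scale (SE 0.13, adjusted p = 1.35e-06), to a mean 3.01-fold lower. Against D0 it was lower at D8 (-1.70 ± 0.13, adjusted p = 1.48e-07), D10 (-1.71 ± 0.13, adjusted p = 1.25e-07) and D12 (-1.12 ± 0.13, adjusted p = 5.64e-06). The D12 call was lost without D12 replicate 1, at -0.996, and with a pseudocount of 5, at -0.89. In riPSC against D0 the difference of -0.77 ± 0.13 was under the fold threshold.

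Cdkn1b, the gene of p27, ran the other way from the other 5 against D0 from D8 on, but not in every earlier comparison. It was above D0 at D4, as Cdkn1c was, and both had lower means at D6 than at D4. Its level was 0.883 and 3.14 FPKM at D0, 3.83 and 4.35 at D2, 6.12 and 8.31 at D4, 3.14 and 3.12 at D6, 13.1 and 12.18 at D8, 13.6 and 13.7 at D10, and 14.3 and 11.7 at D12. In riPSC it was 12.5 and 12.14 FPKM, against 15.001 and 17.6 FPKM in mESC. The D10, D12, D8 and riPSC libraries overlapped as neighbours in its order, and all libraries from D8 on were above all earlier ones. Cdkn1b rose at D8 against D6 by 1.72 ± 0.27 (adjusted p = 1.50e-04), to a mean 4.04-fold higher (1.12 with a pseudocount of 5), in the same step in which Cdkn2a, Cdkn2b, Cdkn2d and Cdkn1c fell. The dip at D6, a log2 fold change of -0.98 ± 0.27 against D4, was just under the fold threshold (adjusted p = 0.00976), and was called after median-of-ratios scaling at -1.02 and after quantile normalization at -1.20. Cdkn1b was above D0 by 1.54 ± 0.27 (adjusted p = 4.18e-04) on day 4 of the course, by 2.29 on day 8, by 2.39 on day 10, by 2.32 on day 12 and by 2.25 in riPSC. The D0 libraries differed 3.56-fold in Cdkn1b, and the D4 call was lost without D0 replicate 1, at 0.98. Other settings lost it too: a pseudocount of 5 and quantile normalization, both at 0.81, and a fit of only the 4 libraries (adjusted p = 0.141). The later rises stayed called in each of these 4 settings, but at D8 the value was 1.35 with a pseudocount of 5, 1.27 after quantile normalization and 1.48 once the trend with transcript length was removed. At D10, D12 and in riPSC the values with that pseudocount or quantile normalization were 1.18 to 1.43. Cdkn1b has the longest exonic sequence of the 6, at 4552 bases, and the median of all genes at D8 against D0 was 0.68 as deposited and 0.04 with the length trend removed; the part of transcript length in the D0 values was not tested.

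Cdkn1c, the gene of p57, was the most abundant of the 6 in the D0, D2 and D4 libraries and the least abundant in riPSC and mESC. It stood at 131 and 146 FPKM at D0, 284 and 220.5 at D2, 610.0 and 622 at D4, 59.0 and 56.9 at D6, 16.2 and 16.1 at D8, 9.45 and 9.25 at D10, and 35.5 and 41.0 at D12. The riPSC libraries had 0.493 and 0.707 FPKM, against 0.961 and 1.21 FPKM in mESC. No neighbouring groups overlapped in its order. Cdkn1c rose to D4, by 2.15 ± 0.13 against D0 (adjusted p = 9.85e-08) and by 1.30 ± 0.13 against D2 (adjusted p = 1.71e-05), the second not called with only those 4 libraries fitted (adjusted p = 0.0671). In the next step, D6 against D4, it fell by 3.39 on the log2 scale (SE 0.13, adjusted p = 5.68e-09), to a mean 10.6-fold lower, while Cdkn2b rose. A further fall followed at D8 (-1.78 ± 0.13 against D6, adjusted p = 2.33e-07). At D12 it was above D10 by 1.92 ± 0.13 (adjusted p = 2.85e-07), and above riPSC by 4.62 ± 0.13 (adjusted p = 1.66e-11). In riPSC against D0 the log2 fold change was -6.45 ± 0.13 (adjusted p = 9.06e-13), the largest change of any of the 6 genes in the 14 comparisons. The lowest library, riPSC replicate 1, held about 20 read pairs of Cdkn1c by the depth estimate, and the highest, D4 replicate 2, about 26350. At D6 against D0 it was lower by -1.24 ± 0.13 (adjusted p = 4.30e-06), a call lost after quantile normalization, at -0.95.

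Cdkn1c lies in the Kcnq1 imprinted domain, and its exons overlap the antisense gene Gm44732, with which it shares 24.9% of its 50-base words; the other 5 genes shared none with any other gene. Since the counting is not stated to use strand, reads of the overlap cannot be assigned. Gm44732 was at most 1.04 FPKM, at D4, and was listed at 0 in all D12, riPSC and mESC libraries. Of 9 other genes of the domain 8 were tested. At D6 against D4, where Cdkn1c fell, 1 of them rose and 0 fell, beside 11.6% higher and 6.86% lower of all genes. For 8 genes a count of 0 is near that share. Cd81, a membrane tetraspanin, rose in that step, to 476 and 464 FPKM against 175 and 209 FPKM at D4 (log2 fold change 1.29 ± 0.19). In riPSC against D0, Ascl2 and Phlda2 were higher and Tssc4 lower, and 5 were not called, beside 40.1% higher and 13% lower of all genes. Tssc4, the called gene over 10 FPKM, had 17.5 and 22.3 FPKM in riPSC and 92.6 and 87.7 FPKM at D0. Kcnq1ot1, the long noncoding RNA whose transcription silences the domain on the paternal allele, was listed at 0.00209 to 0.0706 FPKM over its 93092 bases and was not tested.

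Setting the 6 genes beside all 16439 genes tested shows how far their calls follow the general pattern. In each comparison with D0 the same D0 libraries serve, so these counts are not independent of each other. Those libraries stood apart: the other 16 had 18712 to 23544 genes above 0 and 6.42% to 62.3% of summed FPKM in mitochondrial genes, against 13751 and 16517 genes and 0.437% and 1.89% at D0. In all 7 comparisons with D0, 7 of 7 striated muscle markers and 5 of 6 tested myeloid markers were lower than at D0. The part of these differences in the values against D0 was not tested. At D2, 1 of the 6 (Cdkn2a) was higher than D0 and 5 were not called, where 19.5% of all genes were higher and 4.63% lower. At D4, 2 were higher (Cdkn1b and Cdkn1c), beside 21.5% higher and 4.79% lower of all genes. At D6, 2 were higher (Cdkn2a and Cdkn2b) and 1 lower (Cdkn1c), beside 32.8% and 8.79% of all genes. From D8 on Cdkn1b was the 1 gene of the 6 above D0, while the shares of all genes above D0 were 40.6% at D8, 39.1% at D10, 38% at D12 and, for riPSC, 40.1%. Below D0 were 2 at D8 (11.8% of all genes), 4 at D10 (13%), 2 at D12 (13.8%) and 3 in riPSC (13%). The median log2 fold change of the 6 against D0 was 0.83 for D2, 0.92 for D4, 0.37 for D6, -0.79 for D8, -1.63 for D10, -0.64 for D12 and -1.01 for riPSC. The median of all genes was between 0.24 and 0.68 in these comparisons, and between 0.05 and 0.32 with median-of-ratios scaling.

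Between successive days, 1 of the 6 rose (Cdkn1c) and 1 fell (Cdkn2b) at D4 against D2, where 5.66% of all genes rose and 4.48% fell. At D6 against D4, 1 rose (Cdkn2b) and 1 fell (Cdkn1c), beside 11.6% and 6.86% of all genes. D8 against D6 was the step in which most of the 6 changed: Cdkn2a, Cdkn2b, Cdkn2d and Cdkn1c fell, as did 11.3% of all genes, and Cdkn1b rose, as did 15.1%. Their median in that step was -1.61, beside 0.08 over all genes, and all 5 calls held in every alternative setting run. At D10 against D8, 1 fell (Cdkn2b), beside 2.43% lower and 0.426% higher of all genes, and that call was lost with a pseudocount of 5, at -0.86. At D12 against D10, 3 rose (Cdkn2a, Cdkn2b and Cdkn1c), beside 6.01% higher and 4.68% lower of all genes; with a pseudocount of 5 Cdkn2b was at 0.91 and not called.

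The largest of these steps went with a change in cell type markers. At D8 against D6 all 10 fibroblast markers fell, the summed level being 506 and 508 FPKM at D8 against 3115 and 3078 FPKM at D6. Extraembryonic endoderm markers rose in 8 of 8, to sums of 775 and 747 FPKM at D8 against 60.8 and 59.9 FPKM at D6, and pluripotency markers in 5 of 8. In these bulk libraries fewer cells of a type and less RNA per cell cannot be told apart, and the part of a changing cell mixture in the inhibitor levels was not tested. At D12 against D10, where Cdkn2a, Cdkn2b and Cdkn1c rose, the fibroblast marker sum was 737 and 755 FPKM at D12, against 316 and 332 FPKM at D10, with 4 of 10 markers higher and 1 lower, and its part was not tested either.

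**Figure D2:**
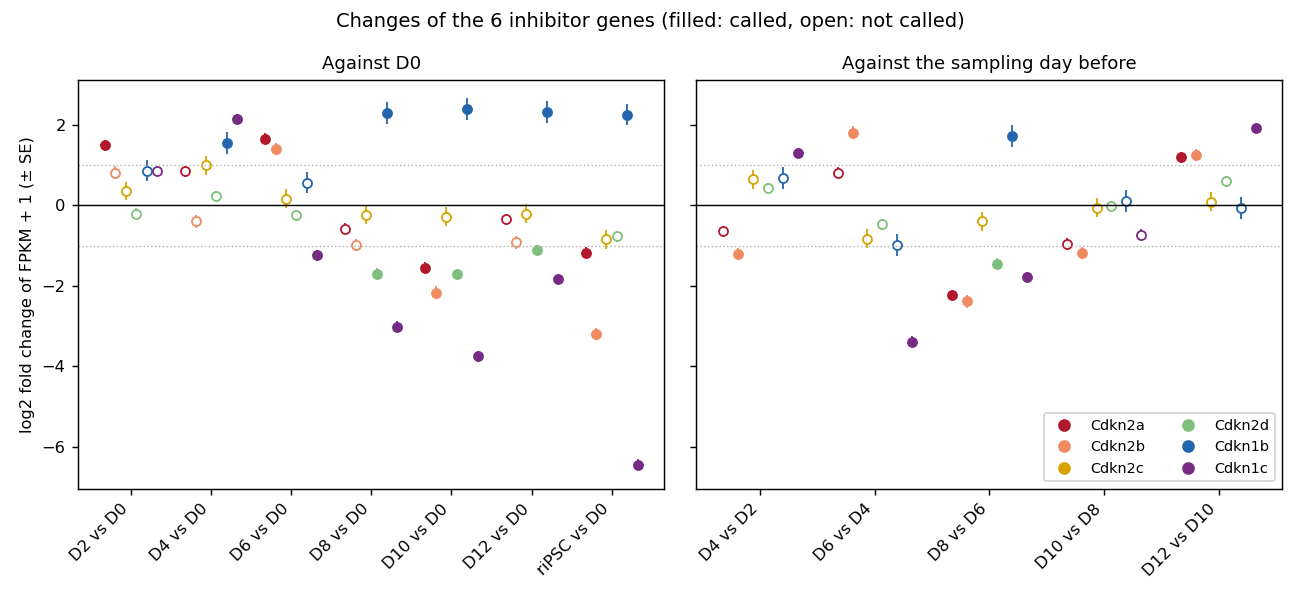
Log2 fold changes of FPKM + 1 with their standard errors for the 6 genes, against D0 (left) and against the sampling day before (right); filled points are called and dotted lines mark a 2-fold change. Cdkn1b is at 2.25 to 2.39 in D8, D10, D12 and riPSC against D0, while Cdkn1c reaches -6.45 in riPSC; at D8 against D6 Cdkn1b alone is above 0.

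The make-up of the summed level of these 6 genes turned over with these changes. Cdkn1a, also of the CIP/KIP family, is not part of this sum. Its mean was 60.8 FPKM at D0 and 107 FPKM at D4, below the sum of the 6. At D6 it was 387 FPKM and in riPSC 76.9 FPKM, above that sum. The summed FPKM of the 6 genes was 241 and 252 at D0, 761 and 778 at D4, 309.9 and 337 at D6 and 85.6 and 84.6 at D8. It was lowest in riPSC (49.7 and 51.3 FPKM), mESC (50.4 and 55.4 FPKM) and D10 (53.8 and 53.8 FPKM), and stood at 116 and 120.3 FPKM at D12. Cdkn1c made up 80.2% and 79.9% of the sum at D4 and 19.03% and 16.9% at D6, when Cdkn2a made up 47.8% and 49.5%. Cdkn1b supplied 0.804% and 1.07% of the sum at D4, 15.3% and 14.4% at D8, and 25.1% and 23.7% in riPSC. In riPSC, Cdkn2a held 40.5% and 43.4%, Cdkn2d 26.1% and 23.5%, and Cdkn1c 0.990% and 1.38%. The ratio of Cdkn1c to Cdkn1b was 99.7 and 74.8 at D4, 1.24 and 1.33 at D8, 2.48 and 3.49 at D12, and 0.0394 and 0.0582 in riPSC. Within the 6, D0 was split between the families, with Cdkn1c at 54.4% and 57.8%. Shares of RNA say nothing of protein, which for p27 is known to be set largely by degradation.

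**Figure D3:**
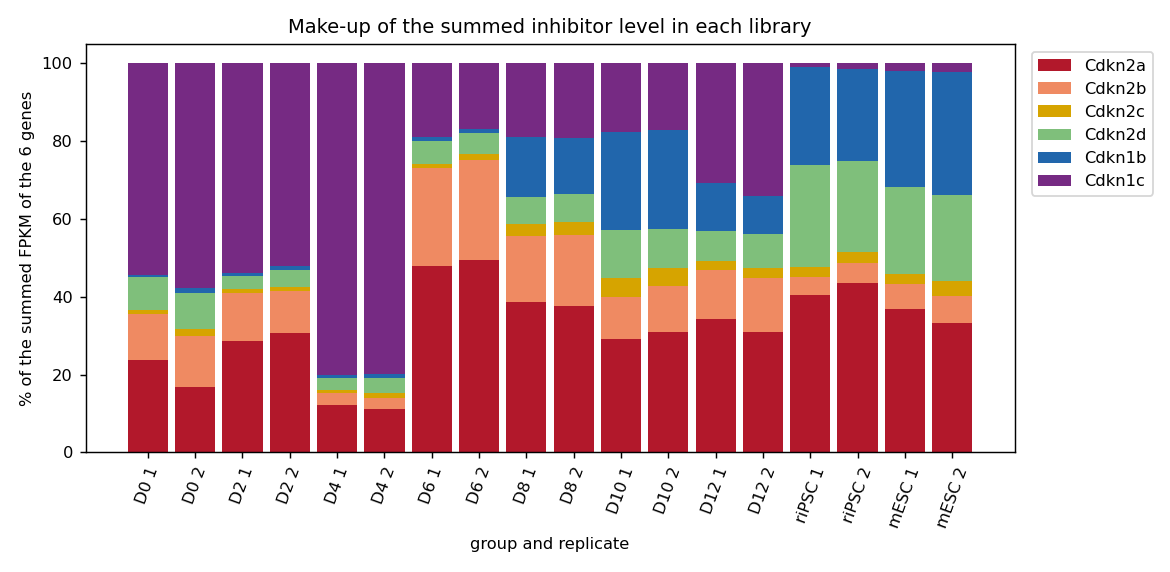
Share of each gene in the summed FPKM of the 6 inhibitor genes, in percent, for each library (bars, 2 per group). Cdkn1c fills 80.2% and 79.9% of the D4 bars, Cdkn2a and Cdkn2b together most of the D6 bars, and Cdkn1b 23.7% to 31.8% of the riPSC and mESC bars.

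The final pair of comparisons set D12 against riPSC and riPSC against mESC. At D12, 2 of the 6 were called against riPSC, both higher, where 16.7% of all genes were higher and 19.8% lower: Cdkn1c, as above, and Cdkn2b by 2.28 ± 0.16 (adjusted p = 6.55e-08). With a pseudocount of 5 these were 2.95 and 1.48, still called. Cdkn2a was 0.83 ± 0.14 higher, under the fold threshold, and Cdkn1b differed by 0.07 ± 0.27. Fibroblast markers differed in the same direction, with sums of 737 and 755 FPKM at D12 and 87.0 and 93.3 FPKM in riPSC, and 8 of 10 were higher; their part was not tested. In riPSC against mESC limma called 0 of the 6, where 1.84% of all genes were higher and 1.2% lower. At an unadjusted p under 0.05 there were 2, Cdkn2b (-0.39, 95% interval -0.74 to -0.05) and Cdkn1c (-0.38, 95% interval -0.67 to -0.10), named after their values were seen. The intervals of the other 4 were -0.11 to 0.49 for Cdkn2a, -0.66 to 0.36 for Cdkn2c, -0.21 to 0.36 for Cdkn2d and -0.96 to 0.21 for Cdkn1b. All 6 intervals are on the log2(FPKM + 1) scale, which understates differences in FPKM at levels as low as those of Cdkn1c, Cdkn2b and Cdkn2c. They do not bound the folds of these genes in FPKM. By group means, Cdkn1c was 1.81-fold lower in riPSC, at 0.600 against 1.09 FPKM. Fibroblast marker sums were 87.0 and 93.3 FPKM in riPSC and 153 and 166 FPKM in mESC.

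Calls among the genes that act with the inhibitors varied by list and step. Of all genes, 11.6% rose and 6.86% fell at D6 against D4, 15.1% rose and 11.3% fell at D8 against D6, and 6.01% rose and 4.68% fell at D12 against D10. Of 5 genes for D-type cyclins and CDK4/6, the targets of INK4 proteins, 1 rose at D6 against D4 and 4 were not called: Ccnd1 went to 153 and 154 FPKM at D6, against 68.5 and 74.8 FPKM at D4. At D8 against D6, 3 of 5 fell: Ccnd1 to 68.2 and 64.1 FPKM against 153 and 154 FPKM (-1.20 ± 0.10), Ccnd3 (-1.18 ± 0.20) and Ccnd2 (-1.07 ± 0.19). Ccnd1 went on falling to 4.71 and 4.42 FPKM at D12, against 18.8 and 18.9 FPKM at D10. In riPSC against D0, where 40.1% of all genes were higher and 13% lower, Ccnd3 was higher (1.88 ± 0.20), and Ccnd2 (-2.71 ± 0.19) and Ccnd1 (-1.46 ± 0.10) lower.

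Cyclins E, A and B with CDK2 and CDK1, 7 genes, are the partners bound by p27 and p57. At D6 against D4, when Cdkn2b rose and Cdkn1c fell, 6 of 7 fell, among them Ccnb2 (-1.96 ± 0.17), Ccna2 (-1.67 ± 0.17), Cdk1 (-1.54 ± 0.19) and Ccnb1 (-1.18 ± 0.26). Ccna2, the S-phase cyclin A2, had 6.81 and 7.03 FPKM at D6, against 22.0 and 26.5 FPKM at D4. At D8 against D6, 5 of 7 rose, among them Ccnb1 (2.41 ± 0.26) and Ccna2 (2.40 ± 0.17), and at D12 against D10, when Cdkn2a, Cdkn2b and Cdkn1c rose, 3 of 7 fell, Cdk1 (-1.69 ± 0.19), Ccnb1 (-1.39 ± 0.26) and Ccna2 (-1.16 ± 0.17). In riPSC against D0, 6 of 7 were higher, with a median log2 fold change of 1.40, beside 40.1% higher and a median of 0.62 over all genes. The part of the inhibitors in the levels of these 7 genes was not tested. Of 11 pocket proteins and E2F factors, 2 were higher and 1 lower at D6 against D4, and 1 was higher and 10 were not called at D8 against D6.

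In the list for ARF, Mdm2 and p53, 2 of 6 genes rose at D6 against D4, a step in which Cdkn2a was not called. Mdm2, which ARF inhibits and p53 induces, had 241 and 228 FPKM at D6, against 20.1 and 23.8 FPKM at D4 (3.36 ± 0.25), and the p53 target Cdkn1a, which encodes p21, had 387 and 387 FPKM, against 94.5 and 119 FPKM (1.86 ± 0.24). Both fell at D8 against D6, Mdm2 by 1.58 and Cdkn1a by 1.53 on the log2 scale. The part of ARF in the levels of Mdm2 and Cdkn1a was not tested. In the list for turnover and transcription of p27, 8 genes tested, Foxo4 and Foxo1 rose at D8 against D6, when Cdkn1b rose, and 6 were not called. Foxo4, a FoxO factor of a family known to induce Cdkn1b, had 184 and 179 FPKM at D8, against 18.9 and 19.1 FPKM at D6 (3.19 ± 0.15). Foxo4 later fell at D12 against D10, to 64.7 and 64.6 FPKM against 165 and 179.6 FPKM. It had 16.5 and 16.1 FPKM in riPSC, against 13.7 and 15.1 FPKM in mESC. Cdkn1b was at 3.14 and 3.12 FPKM at D6, and at 11.7 to 17.6 FPKM in every library from D8 on. For Foxo1 the D6 mean was 0.74 FPKM, the D8 mean 2.83 FPKM and the D10 mean 3.15 FPKM. Its mean was 6.18 FPKM on day 12, 2.86 FPKM in riPSC and 2.80 FPKM in mESC. The part of Foxo4 and Foxo1 in the level of Cdkn1b was not tested. Skp2, the subunit that marks p27 for degradation, had 9.39 and 8.62 FPKM at D8, against 4.86 and 4.49 FPKM at D6, and was not called.

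Among 17 regulators reported for the Ink4-Arf locus, 5 rose and 3 fell at D8 against D6, beside 15.1% and 11.3% of all genes. The largest changes were in the known repressors Twist1 (-3.56 ± 0.28) and Tbx2 (-2.91 ± 0.19), in Id1 (-2.18 ± 0.18), an inhibitor of the activator Ets, and in the histone demethylase Kdm2b (2.15 ± 0.20), a repressor. The 5 that rose were Suz12, Tbx3, Rnf2, Kdm2b and Cbx7, and the 3 that fell were Tbx2, Twist1 and Id1. Their part in the levels of Cdkn2a and Cdkn2b was not tested. Twist1 is also among the 10 fibroblast markers, all of which fell in this step. In riPSC against D0, 10 of 17 rose and 4 fell, beside 40.1% and 13% of all genes, with Cbx7, a Polycomb repressor, at 79.4 and 87.5 FPKM in riPSC and 0 and 0.0834 FPKM at D0. Of 9 genes of the Smad branch of TGF-beta signalling, 2 rose (Tgfbr2 and Smad2) and 1 fell (Tgfb2) at D6 against D4. Of all genes, 11.6% rose and 6.86% fell in that step, in which Cdkn2b also rose. The part of the Smad branch in the level of Cdkn2b was not tested. The ligand gene Tgfb2 had 28.1 and 25.9 FPKM at D6, against 66.7 and 81.1 FPKM at D4, and the receptor gene Tgfbr2 had 37.9 and 34.4 FPKM, against 8.14 and 9.98 FPKM. Tgfb1 and Tgfb3 fell at D8 against D6, Tgfb1 to 6.01 and 6.29 FPKM, against 24.8 and 23.8 FPKM at D6.

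**Figure D4:**
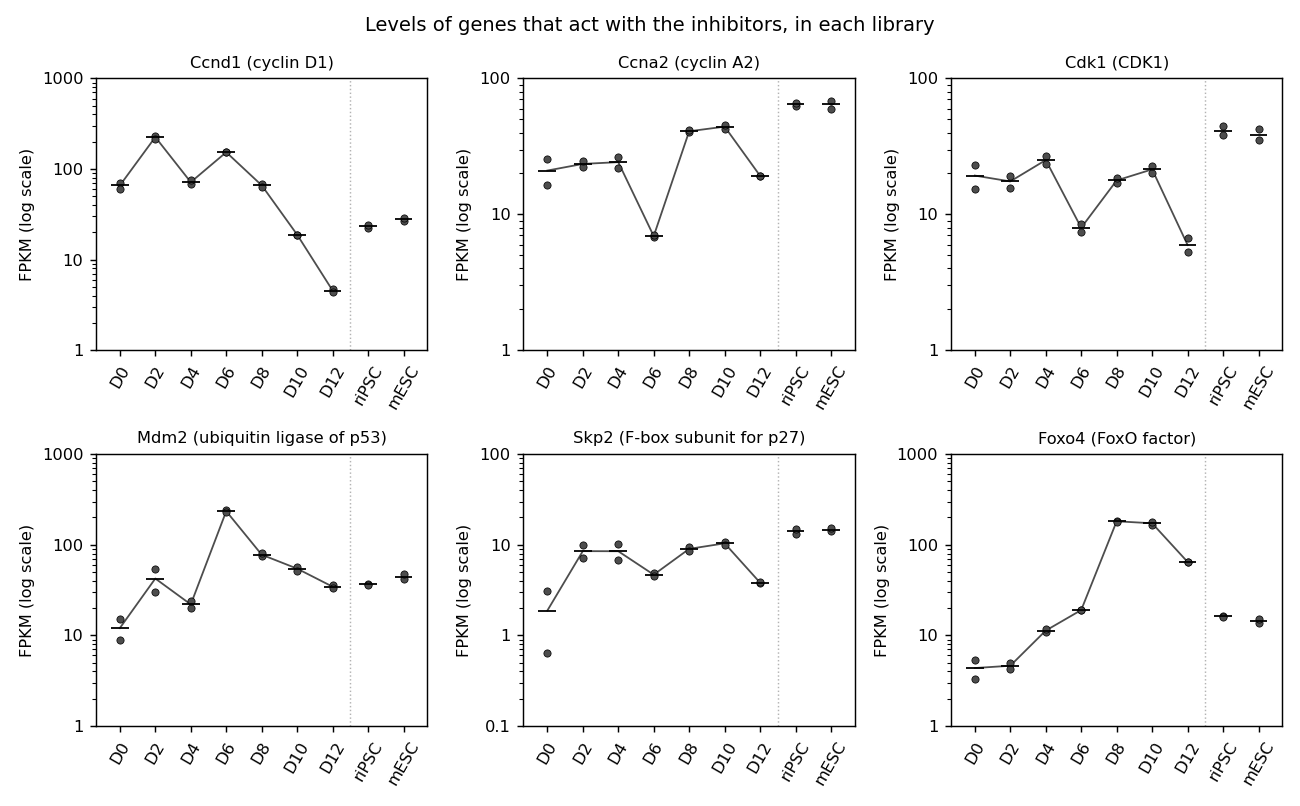
FPKM (log scale, with a different range per panel) of 6 genes from the pathway lists in each library (points), with group means (black bars), days in order and riPSC and mESC to the right of the dotted line. Ccna2 and Cdk1 dip at D6 and D12, Mdm2 peaks at D6 at 241 and 228 FPKM, and Foxo4 is highest at D8 and D10.

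By Pearson's r over the 9 group means of log2(FPKM + 1), among 9285 genes with a group mean of at least 10 FPKM, the gene most like Cdkn1b was Kdm2b (r = 0.996), with 17.3 and 17.5 FPKM at D8, against 3.05 and 3.21 FPKM at D6. For Clstn1, r with Cdkn1b was 0.979. Cdkn2a was closest to Gdf11 (0.970), Npc2 (0.960) and Shc2 (0.958), and Cdkn2b to Ddr2 (0.977), Sphk1 (0.971) and Rgs12 (0.968). For Cdkn2c these were Nbl1 (0.985), Cox16 (0.968) and Igfbp4 (0.968), for Cdkn2d Drap1 (0.984), Snhg8 (0.979) and Srp14 (0.977), and for Cdkn1c Sec11a (0.990), Cops9 (0.985) and Zfp637 (0.985). Sec11a spanned 125 FPKM at D4 to 36.5 FPKM in mESC, far less than Cdkn1c, so likeness here is of shape and not of size.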

How the data were processed

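RNA was sequenced from 18 libraries of 9 groups, assigned from the sample titles. The deposited values are FPKM, 1 table per library with 55401 Ensembl genes. Per the submitters' processing notes the tools were fastp 0.20.1, HISAT2 2.2.1 and StringTie 2.0, with build mm10. The unit was read from the values, and whether counting used strand is not given in the sources used here.

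GENCODE vM21 gave symbols for 55141 identifiers. Values were transformed to log2(FPKM + 1), which understates changes of low genes. The 16439 genes with at least 1 FPKM in at least 2 libraries were tested, and all 6 inhibitor genes passed. The model, in limma 3.58.1 under R 4.3.3, had 9 group means, used all 18 libraries with eBayes, and gave 14 comparisons. P-values were two-sided and Benjamini-Hochberg adjusted over all genes tested within each comparison. Pathway lists name up to 4 called genes each, by size of change with a group mean of at least 10 FPKM. Named beyond that rule at D8 against D6 are Foxo1 and all called regulators of the Ink4-Arf locus. The genes and lists were chosen with earlier results of these data known. Intervals are 95% intervals of the limma model. The files hold no counts, so depth and read pairs are estimates. The fit was checked on simulated data. Alternatives were pseudocounts of 0.1 and 5, no filter and one of 5 FPKM, median-of-ratios and quantile scaling, removal of the length trend or of mitochondrial genes, eBayes with a trend, group variance weights, no fold threshold, only the 4 libraries compared, the replicate block, each library left out, and 2 treatments of the D2 columns. Not every gene that met the rule for likeness to a member is reported here.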

Additional observations from a re-analysis of the deposited data

How the results depend on the processing

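Over 33 alternative settings, 2 of them chosen after seeing the data (the D2 columns averaged, and no D2 columns), none of the values of the 6 genes that was called changed direction. Of 36 calls, 26 held in every setting and 10 were lost in at least 1, as named beside each result. Of 48 values not called, 28 were called in some setting, and 18 in a setting other than no fold threshold. The counts called that moved by more than 1.5 times follow. Where leaving out 1 library changed a count, its range is given whatever the size of the move. The causes of these shifts were not tested. Smaller moves in other settings, such as 6 in riPSC against D0 and 4 at D12 against D10 with no fold threshold, are not all given. With no fold threshold they were 4 at D2 against D0, 5 at D4, D8 and D12 against D0, 4 at D4 against D2, 6 at D6 against D4, 3 at D10 against D8 and 5 at D12 against riPSC. With a pseudocount of 0.1 they were 2 at D2 against D0 and 2 at D10 against D8, and with a pseudocount of 5 they were 1 at D4 against D0 and 0 at D10 against D8. Quantile normalization gave 1 at D4, 5 at D8 and 5 at D12 against D0, 4 at D6 against D4 and 2 at D10 against D8. Median-of-ratios scaling gave 5 at D8 against D0. Fitting only the 4 libraries compared gave 0 at D2 and 1 at D4 against D0, and 0 at D4 against D2, with fewer samples to estimate the spread. Leaving out 1 library gave 1 to 3 at D2, 2 to 3 at D4, 3 to 4 at D6, 3 to 4 at D8 and 2 to 4 at D12 against D0, 1 to 2 at D4 against D2, 2 to 4 at D6 against D4 and 1 to 2 at D10 against D8. The count was 2 at D2 against D0 without D0 replicate 2 and 3 without D2 replicate 2, 1 at D4 against D2 without D2 replicate 1, 4 at D6 against D4 without D4 replicate 1, and 2 at D10 against D8 without D10 replicate 2. The other comparisons kept their count in all leave-out fits, D8 against D6 among them. A kept count need not mean the same genes. In riPSC against D0, Cdkn2a was not called without D0 replicate 1, so another gene took its place in the count.

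Same-numbered replicates did not deviate together (r between -0.23 and 0.27 over 36 pairs of groups, with 5 over 0.1), so the numbers were not taken as pairs. The replicate block changed no count and no call, with 5 of the 6 called at D8 against D6. Depth limits Cdkn1c in riPSC, at about 20 read pairs in the lowest library.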
